A study of Mus musculus with 16 samples.

Results

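Autophagy genes were followed in CD4 T cells taken from the spleens of mice that carried a transplanted lymphoma. They were the 45 genes, of 23479 in the deposited count table, whose symbols start with Atg and a digit (17 genes) or that stand on a list of 28 symbols fixed by name, from Becn1 and Ulk1 to Lamp2 and the Vps genes of the HOPS complex. The rule uses no measured value. All 45 passed the filter on low counts, which left 18430 genes for testing. The tumour-bearing mice were of the C57BL/6 strain and had received Eu-Myc lymphoma cells by transplant, B lineage lymphoma cells that overexpress the Myc oncogene. Splenic CD4 T cells were isolated at day 7 (n = 7 libraries) and day 14 (n = 4) after transplant, and from C57BL/6 mice labelled as control at day 0 (n = 5). Isolation was by magnetic negative selection, which leaves unlabelled cells of other types in the sample. The lymphoma grew from injected cells, so T cells that met a spontaneous tumour were not studied. The labels do not say that each library came from a separate mouse, so p-values measure the spread between these libraries, which may be technical.

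Autophagy encloses portions of cytoplasm in a double membrane, the autophagosome, and delivers them to the lysosome for breakdown. The ULK kinase complex and the VPS34 lipid kinase complex start the membrane, ATG9 vesicles and the lipid-transfer protein ATG2 supply it with lipid, and a pair of ubiquitin-like conjugation systems attach LC3 and GABARAP proteins to it. Cargo receptors tether ubiquitinated cargo to LC3 and GABARAP, and the HOPS complex then tethers the autophagosome to the lysosome. In T cells autophagy is known for removing organelles and supporting survival after activation and in memory. Transcript levels do not measure autophagic flux.

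Libraries held 14493764 to 27340070 reads assigned to genes, with 14731908 to 17067236 in the day 14 group, and the 45 genes summed to 40600 to 84335 reads a library. Levels below are read counts scaled by the trimmed mean of M-values and set per 1000000 reads (CPM). Of 7 CD4 T cell markers, 6 were in the table and summed to 2427 to 5586 CPM, against 14.5 to 76.8 CPM for 9 B cell markers and 5.68 to 17.6 CPM for 2 CD8 markers. Reads outside gene models took 54.4 to 69.8% of a day 14 library, 54.6 to 68.0% of a day 7 library and 47.1 to 56.7% of a control library. The neutrophil markers (8 of 9 in the table) summed to 1554 CPM in day 14 library 4, to 785 and 2156 CPM in control libraries 1 and 2, and to 0.802 to 53.8 CPM in the other 13. Markers of dividing cells summed to 1682 and 3877 CPM in control libraries 1 and 2, against 168 to 1819 CPM in the other 14, with the top of that range in day 14 library 4. The Y-linked transcripts reached 352 to 433 CPM in 5 libraries (the first 2 controls, the last 2 of day 7 and the last of day 14), and were at 3.55 CPM or less in the other 11. For members with their highest control values in control libraries 1 and 2, values without both are given too, and the fit to those 11 libraries alone was chosen after the values had been seen. In bulk RNA, fewer cells of a type and less RNA per cell cannot be told apart.

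Of the 45 autophagy genes, 2 fell at day 14 against control, and 0 fell at day 7 in the fit to all 16 libraries. At day 14, Atg3, the E2-like enzyme that hands LC3 and GABARAP to the membrane lipid, and Gabarap itself fell to 0.654 and 0.686 of the control level. The 3 comparisons were made with edgeR's quasi-likelihood test, with Benjamini-Hochberg adjustment over all 18430 genes and a threshold of 0.05. At day 14 against control, 0 of 45 genes were called higher and 2 were called lower, where 1.33% of all genes were called higher and 1.8% lower. With 2 calls in 45 genes, the count is near that background. Atg7 and the 4 Atg4 genes, whose products act at the same conjugation step as those of Atg3 and Gabarap, were not called. Over 21 alternatives Atg3 was called in 14 and Gabarap in 7. DESeq2 called 0 higher and 3 lower (Atg3, Gabarap and Tax1bp1), beside 4.62% and 3.79% of all genes, limma-voom called 0 higher and 2 lower, and 0 members had an unadjusted p below 0.05 with a higher level, against 10.5% of all genes. A lower level with an unadjusted p below 0.05 was found for 10 members, where 11.8% of all genes had one. No member had all day 14 libraries above all control libraries, where 5.24% of all genes did. These shares cover sparse genes too. Among genes of at least 10 CPM, as 39 members were, 70.7% had a log2 change below 0, and 71.8% of those members did. The shares of higher levels among such genes were not counted.

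At day 7 against control, 0 of 45 were called in either direction, where 0.0109% of all genes were called higher and 0% lower. At an unadjusted p below 0.05, 4 members were higher (8.43% of all genes) and 8 lower (12.7% of all genes). DESeq2 called 2 higher and 6 lower at day 7, beside 2.71% and 5.99% of all genes, and limma-voom called 0. Without control library 5, edgeR's test also gave 2 higher (Ambra1 and Vps39) and 6 lower (Atg3, Gabarapl1, Lamp1, Lamp2, Optn and Wipi1), beside 2.33% and 5.58% of 18374 genes. At day 14 against day 7, 0 were called in either direction, where 0.412% of all genes were called higher and 0.553% lower. At an unadjusted p below 0.05, 2 members were higher and 10 lower, beside 6.54% and 8.27% of all genes. DESeq2 called 1 in each direction there, with 1.89% and 1.94% of all genes, and limma-voom called 0.

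The members' median log2 change was -0.17 at day 14 against control, with 31 of 45 genes below 0, beside a median of 0.12 over all genes tested, of which 42.3% lay below 0. The members are mostly abundant genes. Above a group mean of 10 CPM in either of the groups compared, 39 members had a median of -0.17 and 8553 genes of the table one of -0.15, with 71.8% and 70.7% below 0. At day 7 against control the median was 0.024, with 21 members below 0, beside 0.066 over all genes, of which 43.8% lay below 0, and among the more abundant genes 39 members had a median of 0.025 and 8418 genes one of -0.034, with 43.6% and 54.8% below 0. At day 14 against day 7 it was -0.14, with 34 members below 0, beside 0.12 over all genes, of which 40.6% lay below 0. Among the more abundant genes there, 37 members had a median of -0.16 and 8330 genes one of -0.10, with 86.5% and 69.6% below 0. Scaling by library totals moved the median of all genes at day 14 against control to 0.32 and that of the members to 0.036, so the direction of the members' median depends on the scaling. The gap between members and all genes was -0.28 with the first scaling and -0.29 with library totals. A change of scaling shifts all genes by about the same amount, so that gap could hardly move. Beside the genes averaging 10 CPM or more, it was -0.015 with the first scaling and -0.0092 with library totals.

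**Figure D1:**
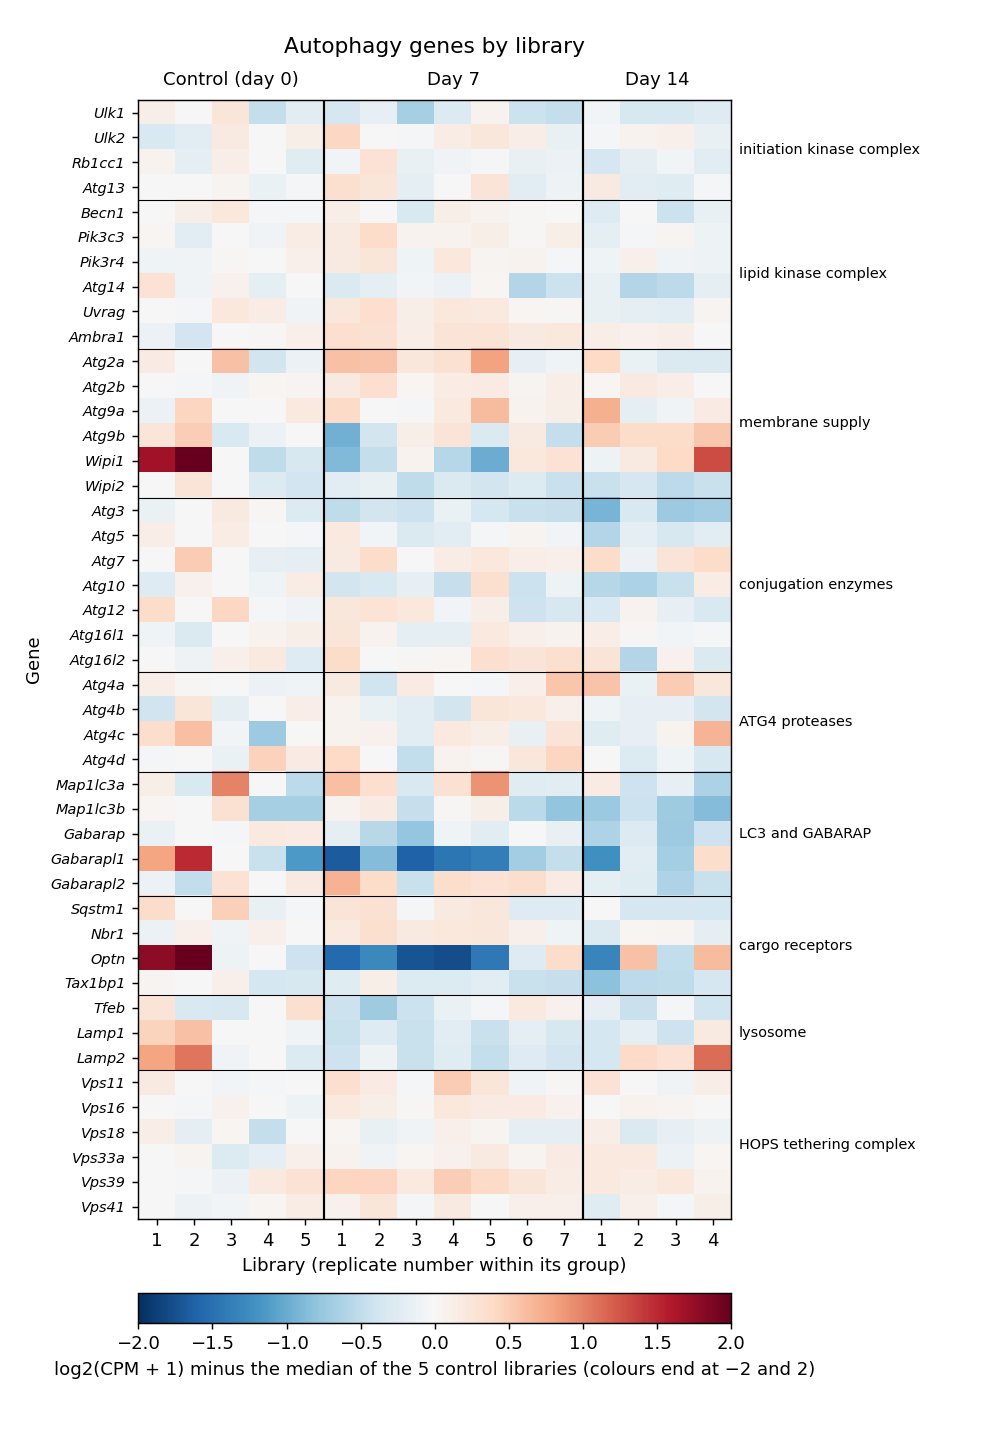
Each row is 1 of the 45 autophagy genes, grouped by role, and each column 1 library, with control, day 7 and day 14 from left to right. Colour gives log2(CPM + 1) minus the median of the 5 control libraries. Optn, Wipi1, Gabarapl1, Lamp1 and Lamp2 are redder in control libraries 1 and 2 than in the other 3, and Atg3 is blue in every day 14 library.

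**Figure D2:**
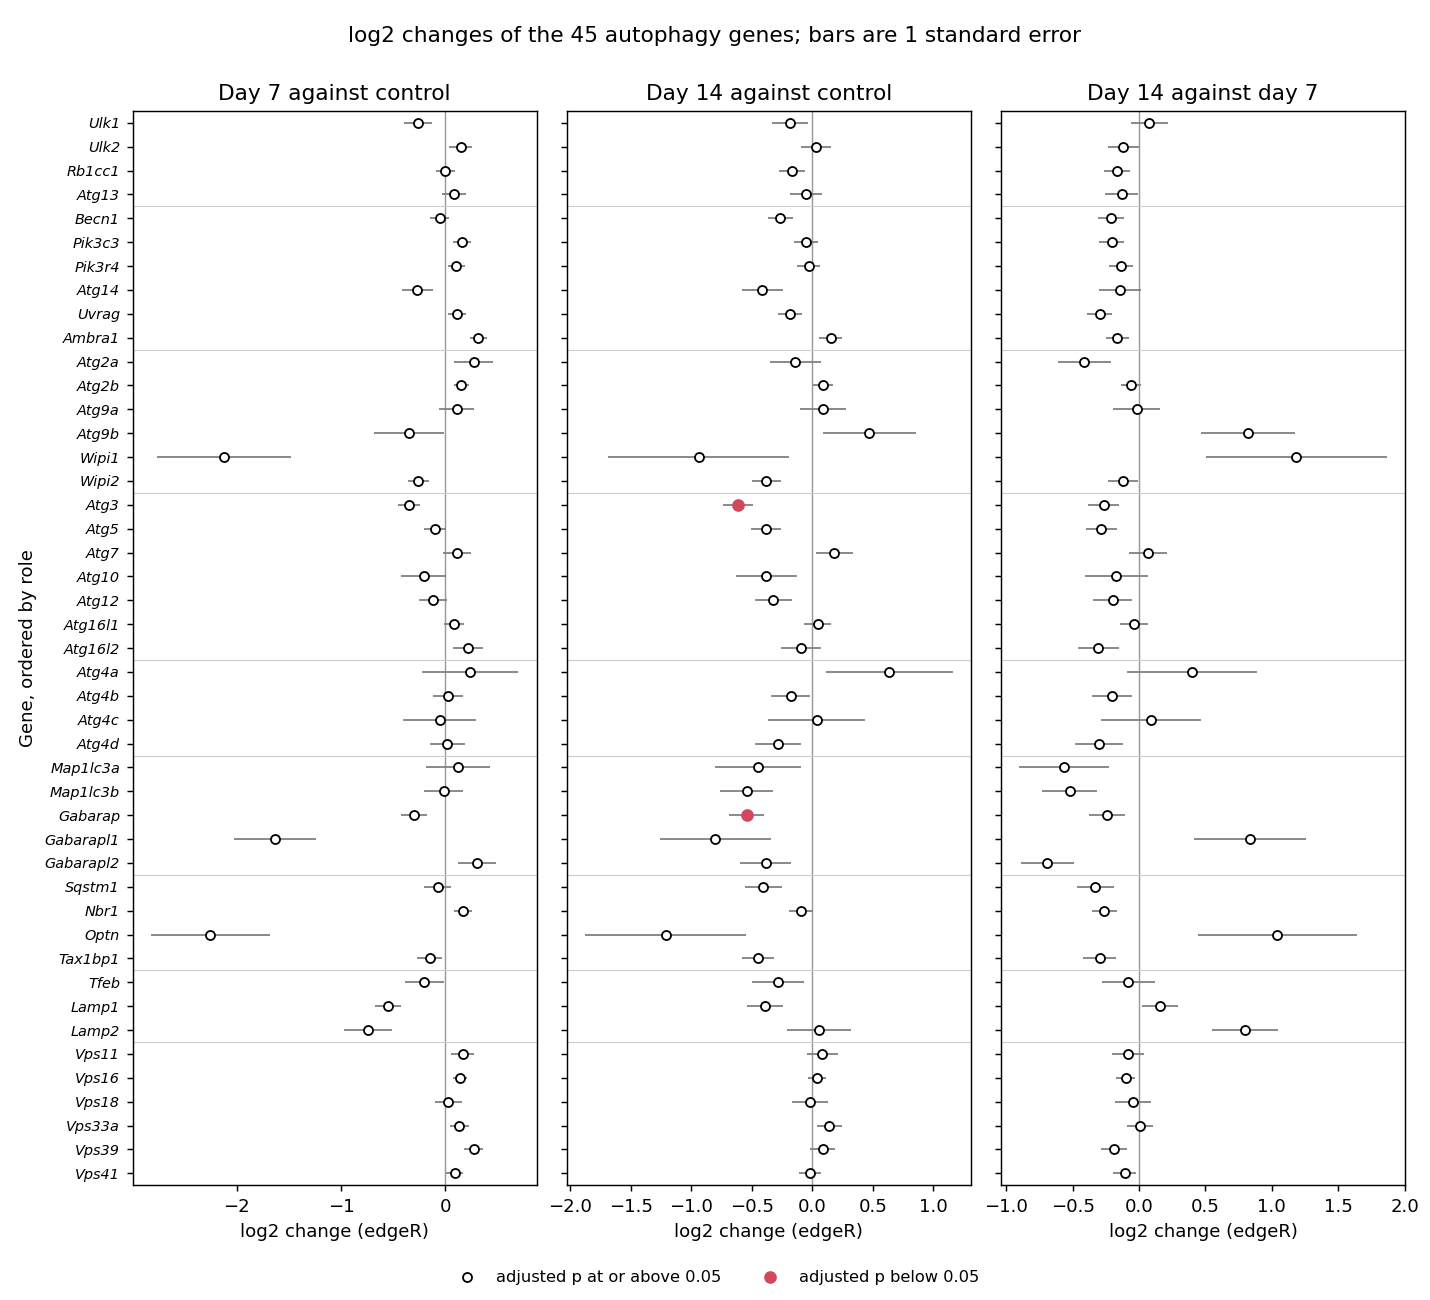
log2 changes of the 45 genes in the 3 comparisons, in the order of the roles, with bars of 1 standard error. Filled points, Atg3 and Gabarap at day 14 against control, passed an adjusted p of 0.05, and every other point is open.

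Compared per kilobase of annotated exon, Gabarap had the highest level of the members. The length used was the union of the exons of all annotated transcripts, which can exceed the main transcript, so the order depends on it. For Map1lc3b it was 7517 of the 8400 bases spanned. Tax1bp1, at 332 CPM in controls against 116 CPM for Gabarap, was divided by 9991 bases against 1844. In control libraries it averaged 63.0 ± 6.25 CPM per kilobase of exon (SD, n = 5), followed by Atg3 at 45.4 ± 5.46 and by the cargo receptor Sqstm1 (p62) at 39.6 ± 7.69 CPM per kilobase. Gabarap lay above Atg3 in every control library, with 55.4 to 70.1 against 38.3 to 52.7 CPM per kilobase. Atg3 and Sqstm1 overlapped in range, as did Sqstm1 and the lysosomal membrane protein gene Lamp1 at 37.5 ± 8.22 CPM per kilobase. The least abundant were Wipi1, Atg4c, Atg9b and Atg4a, with control means of 1.43, 0.739, 0.686 and 0.311 CPM per kilobase. Exon overlap limits some levels: 16 members share exon bases with another gene, and no source used here states the strand setting of the counting, so their reads cannot be assigned with certainty. Becn1 shares 36.8% of its 50-base exon windows with other genes, chiefly Cntd1. For Gabarapl1 it is 23.1% with 1700101I11Rik, for Sqstm1 15.5% with Mrnip and for Atg4a 51.2%, mainly with the pseudogene Atg4a-ps. Atg9a shares 30.5%, chiefly with Gm29253 on the same strand, and Uvrag 17.4%, chiefly with Gm45187. Atg3 and Gabarap share 0%.

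None of the 4 initiation genes was called in any comparison. Ulk1, the kinase that responds to nutrient and energy signals, had 86.5, 80.0, 94.3, 57.1 and 68.9 CPM in the 5 control libraries, 49.9 to 84.4 (median 63.3) CPM in the 7 day 7 libraries and 77.1, 64.0, 64.2 and 66.9 CPM in the 4 day 14 libraries. The groups overlapped, with control library 3 highest and day 7 library 3 lowest (day 7 against control, log2 change -0.26 ± 0.13, adjusted p = 0.257; day 14 against control, log2 change -0.19 ± 0.15, adjusted p = 0.456). Rb1cc1, which encodes FIP200, the scaffold of the ULK complex, had 205, 173, 215, 196 and 166 CPM in the 5 control libraries, 176 to 239 (median 187) CPM in the 7 day 7 libraries and 154, 171, 189 and 167 CPM in the 4 day 14 libraries. Its ranges overlapped in all 3 groups (day 14 against control, log2 change -0.17 ± 0.11, adjusted p = 0.356). Ulk2, a related kinase, and Atg13, an adaptor of the complex, had log2 changes between -0.13 and 0.15 in the 3 comparisons.

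The lipid kinase complex makes the phosphoinositide that marks the forming membrane. Becn1, its Beclin 1 subunit, had 103, 111, 119, 101 and 101 CPM in the 5 control libraries, 82.9 to 112 (median 104) CPM in the 7 day 7 libraries and 85.7, 102, 75.9 and 93.001 CPM in the 4 day 14 libraries. Of the day 14 libraries, 3 lay below every control library, and day 14 library 2 overlapped them (day 14 against control, log2 change -0.26 ± 0.11, adjusted p = 0.151). Pik3c3, the catalytic subunit VPS34, had 59.3, 49.0, 57.4, 54.5 and 63.8 CPM in the 5 control libraries, 58.2 to 74.027 (median 62.5) CPM in the 7 day 7 libraries and 50.8, 55.9, 59.6 and 53.2 CPM in the 4 day 14 libraries, with overlapping groups (day 14 against day 7, log2 change -0.20 ± 0.09, adjusted p = 0.311). Ambra1, a Beclin 1 partner that also links substrates to a ubiquitin ligase, had 138, 115, 149.9, 152 and 160.1 CPM in the 5 control libraries, 165 to 189.8 (median 179) CPM in the 7 day 7 libraries and 163, 159, 162 and 151 CPM in the 4 day 14 libraries. Every day 7 library stood above every control library and every day 14 library, and the day 14 and control libraries overlapped. Against control its day 7 level did not pass the test (log2 change 0.31 ± 0.08, adjusted p = 0.0777), and against day 7 its day 14 level did not either (log2 change -0.16 ± 0.09, adjusted p = 0.402). Ambra1 was the 1 member without overlap above control at day 7, where 0.988% of all genes had none in that direction, and the 1 member below day 7 at day 14, where 2.78% had none. DESeq2 called Ambra1 higher at day 7, with a log2 change of 0.33 ± 0.09 and an adjusted p of 0.0150, and without control libraries 1 and 2 edgeR's test gave 0.21 ± 0.08 (adjusted p = 0.343). With library totals Ambra1 was called higher at day 14 against control (log2 change 0.36, adjusted p = 0.0291), and its log2 change against day 7 was 0.00023. Uvrag, a Beclin 1 partner in membrane traffic, and Atg14, the subunit that directs the complex to autophagy, are named here after their values were seen. Uvrag had a log2 change of -0.29 ± 0.09 at day 14 against day 7 (adjusted p = 0.137) and Atg14 one of -0.41 ± 0.17 at day 14 against control (adjusted p = 0.170). Pik3r4, the regulatory subunit, had log2 changes between -0.14 and 0.11.

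None of the 6 membrane supply genes was called in any comparison in edgeR's fit to all 16 libraries with the first scaling. With library totals Atg2b was called higher at day 14 against control (log2 change 0.29, adjusted p = 0.0374). Without control library 5, edgeR's test called Wipi2 lower at day 14 against control (log2 change -0.45, adjusted p = 0.0375). It then also called Wipi1 lower at day 7 against control (-2.38, adjusted p = 0.0335), as did DESeq2 with all libraries (-2.06, adjusted p = 0.0198). Atg2b, a lipid-transfer protein, had 124, 123, 118, 128 and 129 CPM in the 5 control libraries, 127 to 157 (median 138) CPM in the 7 day 7 libraries and 128, 141, 137 and 125 CPM in the 4 day 14 libraries, the tightest control group of all members with a coefficient of variation of 3.64% (day 7 against control, log2 change 0.15 ± 0.07, adjusted p = 0.235; day 14 against control, log2 change 0.091 ± 0.08, adjusted p = 0.506). Atg2a, its paralog, had 142, 126, 189, 97.6 and 117 CPM in the 5 control libraries, 113 to 222 (median 156) CPM in the 7 day 7 libraries and 167, 116, 103 and 103 CPM in the 4 day 14 libraries. Its values spread from 97.6 to 222 CPM with overlap of all groups (day 14 against day 7, log2 change -0.41 ± 0.20, adjusted p = 0.346). Atg9a, the scramblase carried by ATG9 vesicles, had 19.4, 28.7, 21.0, 21.2 and 24.4 CPM in the 5 control libraries, 20.5 to 33.3 (median 23.0) CPM in the 7 day 7 libraries and 35.2, 18.5, 20.0 and 23.8 CPM in the 4 day 14 libraries, and day 14 library 1 was the highest (day 14 against control, log2 change 0.089 ± 0.19, adjusted p = 0.786). Atg9b, its sparse paralog, had 3.48 to 4.05 CPM at day 14 against 0.802 to 3.18 CPM at day 7, without overlap (log2 change 0.82 ± 0.35, adjusted p = 0.280). It was the 1 member without overlap in that direction, where 1.77% of all genes had none. Wipi2, a phosphoinositide reader that recruits the conjugation machinery, averaged 59.1 ± 3.33 CPM at day 14 (SD, n = 4) and 76.8 ± 13.8 CPM in controls (n = 5), a difference that missed the threshold (log2 change -0.38 ± 0.12, adjusted p = 0.0860).

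Atg3 and Gabarap act at the same step, in which ATG4 proteases expose a glycine at the end of LC3 and GABARAP proteins, the E1-like ATG7 activates it and the E2-like ATG3 passes it to phosphatidylethanolamine. The last 30 coding bases of the LC3 and GABARAP genes, read from GENCODE transcripts of GRCm38, all on the plus strand, show this site. Capitals mark the codon of the glycine at the ATG4 cut, known from the mammalian proteins.
Map1lc3a (chr2:155277608-155277637): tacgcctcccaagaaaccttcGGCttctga
Map1lc3b (chr8:121596741-121596770): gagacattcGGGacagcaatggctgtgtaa
Gabarap (chr11:69994495-69994524): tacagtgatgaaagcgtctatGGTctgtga
Gabarapl1 (chr6:129541138-129541167): tacagtgatgaaagtgtctatGGAaaatga
Gabarapl2 (chr8:111952376-111952405): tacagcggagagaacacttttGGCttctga
Map1lc3b has 5 codons between that glycine and the stop codon, and the other 4 genes have 1.

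Atg3 lies at chr16:45158785-45188538, plus strand (GRCm38). It had 133, 147, 166, 149.7 and 121 CPM in the 5 control libraries, 103 to 133 (median 109) CPM in the 7 day 7 libraries and 76.3, 119, 88.8 and 90.6 CPM in the 4 day 14 libraries. All 4 day 14 libraries lay below all 5 control libraries, and day 14 library 2 came just below control library 5. Mean levels were 93.7 ± 18.1 CPM at day 14 (SD, n = 4) and 143 ± 17.2 CPM in controls (n = 5), and Atg3 fell (fold 0.654; log2 change -0.61 ± 0.12, adjusted p = 0.0186). Day 7 levels averaged 113 ± 9.95 CPM (n = 7). Against control their difference did not pass the test (log2 change -0.35 ± 0.11, adjusted p = 0.0851). DESeq2 called Atg3 lower at day 7 (log2 change -0.33, adjusted p = 0.0260). Without control libraries 1 and 2 Atg3 still fell at day 14 (-0.64 ± 0.14, adjusted p = 0.0203, where 2.38% of 19144 genes were called higher and 2.54% lower). Within the 11 libraries low in Y-linked transcripts it fell too (log2 change -0.65 ± 0.16, adjusted p = 0.0380). The share of reads outside gene models moved with this result: it was 69.8, 54.4, 66.3 and 62.3% in day 14 libraries 1 to 4, and library 2, with the lowest share, had the highest Atg3. With that share as a covariate the log2 change was -0.43 with an adjusted p of 0.573, and of all genes 1 was then called higher and 0 lower. The part of that share in the Atg3 level was not tested further. The call was also lost when day 14 library 1, 3 or 4 or control library 3 was left out, with log2 changes of -0.75 to -0.49 over the 9 libraries left out in turn.

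The other conjugation genes stayed uncalled. Atg5, which joins ATG12 and ATG16L1 in the complex that places LC3 on the membrane, had 33.3, 30.5, 33.9, 30.2 and 29.5 CPM in the 5 control libraries, 24.7 to 34.9 (median 29.3) CPM in the 7 day 7 libraries and 20.1, 26.4, 24.1 and 26.1 CPM in the 4 day 14 libraries. Its day 14 libraries were all below its control libraries, and it was, with Atg3 and Gabarap, 1 of 3 members without overlap, where 2.85% of all genes had none in that direction (day 14 against control, log2 change -0.38 ± 0.13, adjusted p = 0.0911). Atg7, the E1-like enzyme, had 23.8, 34.3, 23.989, 21.2 and 20.7 CPM in the 5 control libraries, 23.7 to 31.1 (median 26.5) CPM in the 7 day 7 libraries and 31.1, 21.9, 28.7 and 31.0 CPM in the 4 day 14 libraries. Its groups overlapped and its log2 change at day 14 against control was positive (log2 change 0.18 ± 0.15, adjusted p = 0.474). Atg16l1, the part of the complex that fixes its position, had 46.1, 39.7, 48.8, 51.4 and 53.2 CPM in the 5 control libraries, 42.7 to 57.9 (median 51.2) CPM in the 7 day 7 libraries and 53.4, 49.6, 46.8 and 47.5 CPM in the 4 day 14 libraries, with little spread and no separation (day 14 against control, log2 change 0.044 ± 0.11, adjusted p = 0.819). Atg16l2, a paralog of Atg16l1, had 27.3, 25.5, 29.3, 31.4 and 22.7 CPM in the 5 control libraries, 27.5 to 35.6 (median 32.8) CPM in the 7 day 7 libraries and 33.0, 17.9, 29.1 and 22.1 CPM in the 4 day 14 libraries. Day 14 library 2 was its lowest, and its day 14 level missed the threshold against day 7 (log2 change -0.31 ± 0.15, adjusted p = 0.369). Of the ATG4 proteases, which cut and release LC3 and GABARAP, Atg4b had the highest control mean per length, 2.86 CPM per kilobase, and 18.1, 28.8, 21.1, 24.1 and 26.5 CPM in the 5 control libraries, 18.4 to 28.7 (median 25.3) CPM in the 7 day 7 libraries and 22.5, 21.4, 21.3 and 18.4 CPM in the 4 day 14 libraries. All 3 groups of Atg4b overlapped (day 14 against control, log2 change -0.18 ± 0.16, adjusted p = 0.502).

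Gabarap lies at chr11:69991143-69994951, plus strand (GRCm38). The gene had 102, 113, 110.0, 129 and 127 CPM in the 5 control libraries, 65.8 to 114 (median 98.7) CPM in the 7 day 7 libraries and 73.5, 93.3, 67.9 and 84.3 CPM in the 4 day 14 libraries. Day 14 libraries were all below control libraries, while day 7 libraries ranged from the lowest value of the 16 to within the controls. The means were 79.8 ± 11.3 CPM at day 14 (SD, n = 4) and 116 ± 11.5 CPM in controls (n = 5), and Gabarap fell (fold 0.686; log2 change -0.54 ± 0.14, adjusted p = 0.0484). It fell also without control libraries 1 and 2 (-0.62 ± 0.16, adjusted p = 0.0378) and within the 11 libraries low in Y-linked transcripts (log2 change -0.68 ± 0.18, adjusted p = 0.0430), where 1.65% of 18793 genes were called higher and 1.72% lower. As a covariate, the share of reads outside gene models left a log2 change of -0.19 with an adjusted p of 0.825, and the highest day 14 value was again that of library 2. The call was kept when day 14 library 2 or control library 2 was left out and was lost when any other of the 9 day 14 and control libraries was. Over all 21 alternatives Gabarap was called in 7 and Atg3 in 14, with adjusted p-values of 0.0172 to 0.825 for Gabarap and 0.000461 to 0.573 for Atg3.

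The remaining LC3 and GABARAP genes had negative log2 changes at day 14 against control, from -0.80 to -0.39, and none was called. They were negative with library totals too, from -0.63 to -0.18, and Gabarapl1 was at 0.14 without control libraries 1 and 2. Map1lc3b, the main LC3 gene, had 120.5, 117, 146, 73.8 and 73.5 CPM in the 5 control libraries, 67.3 to 131 (median 119.5) CPM in the 7 day 7 libraries and 69.5, 86.9, 71.2 and 64.0 CPM in the 4 day 14 libraries. Its control libraries fell into 3 high and 2 low values, and the low pair lay within the day 14 range (day 14 against control, log2 change -0.54 ± 0.22, adjusted p = 0.156). Gabarapl2 had 15.7, 11.9, 21.2, 17.1 and 19.5 CPM in the 5 control libraries, 12.3 to 28.5 (median 22.1) CPM in the 7 day 7 libraries and 14.8, 14.3, 10.9 and 12.3 CPM in the 4 day 14 libraries. Of the 7 day 7 libraries, 6 were above every day 14 library, and day 7 library 3 lay among the day 14 values (day 14 against day 7, log2 change -0.69 ± 0.20, adjusted p = 0.0997). DESeq2 called Gabarapl2 lower there (log2 change -0.65 ± 0.21, adjusted p = 0.0396), as did the fit with the Y-linked sum as a covariate (-0.70 ± 0.19, adjusted p = 0.0367). Gabarapl1 had 30.9, 50.9, 17.5, 12.5 and 7.30 CPM in the 5 control libraries, 4.81 to 12.3 (median 6.05) CPM in the 7 day 7 libraries and 6.90, 14.8, 10.6 and 22.5 CPM in the 4 day 14 libraries. Control libraries 1 and 2 were its highest and day 14 library 4 was next (day 7 against control, log2 change -1.64 ± 0.39, adjusted p = 0.0777; day 14 against control, log2 change -0.80 ± 0.46, adjusted p = 0.304). Without control libraries 1 and 2 its day 7 log2 change was -0.70 ± 0.35 (adjusted p = 0.406). Its day 7 level was called lower with the Y-linked covariate (-1.23 ± 0.26, adjusted p = 0.0215) and by DESeq2 (-1.60 ± 0.37, adjusted p = 0.00343). Map1lc3a, the second LC3 gene of the table, had 3.93 to 14.1 CPM over the 16 libraries. Of the 50-base exon windows, 12.2% for Gabarapl2 and 6.01% for Map1lc3b also occur in other annotated genes, so their counts are less certain.

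Promoters of the 2 genes that fell, and of Lamp1 as the member with most matches, are shown because TFEB, a master regulator of autophagy and lysosome genes, binds the E-box CACGTG. RefSeq promoters of GRCm38.p6, 250 bases before to 50 after the start, were matched by symbol for 37 of 45 members. Those shown are all on the plus strand, with CACGTG in capitals, at chr16:45158579-45158878 for Atg3, chr11:69991120-69991419 for Gabarap and chr8:13158911-13159210 for Lamp1.
Atg3 promoter: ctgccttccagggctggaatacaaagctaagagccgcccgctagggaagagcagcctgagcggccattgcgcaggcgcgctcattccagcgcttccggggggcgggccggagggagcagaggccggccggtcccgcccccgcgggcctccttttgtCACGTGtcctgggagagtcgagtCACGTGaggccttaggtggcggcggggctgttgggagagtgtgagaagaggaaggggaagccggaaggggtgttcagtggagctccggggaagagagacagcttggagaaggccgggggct
Gabarap promoter: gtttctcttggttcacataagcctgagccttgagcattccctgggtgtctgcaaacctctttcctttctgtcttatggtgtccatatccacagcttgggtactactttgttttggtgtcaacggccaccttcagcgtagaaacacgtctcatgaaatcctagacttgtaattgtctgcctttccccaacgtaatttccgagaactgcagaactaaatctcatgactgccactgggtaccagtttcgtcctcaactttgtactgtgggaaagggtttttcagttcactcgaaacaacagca
Lamp1 promoter: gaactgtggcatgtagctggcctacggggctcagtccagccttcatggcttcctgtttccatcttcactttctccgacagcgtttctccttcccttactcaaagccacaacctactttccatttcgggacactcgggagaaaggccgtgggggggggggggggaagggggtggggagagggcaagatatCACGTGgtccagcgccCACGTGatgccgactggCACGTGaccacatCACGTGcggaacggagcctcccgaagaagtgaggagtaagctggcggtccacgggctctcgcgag
CACGTG reads the same on both strands. It occurs 2 times in the Atg3 window, 0 times in the Gabarap window and 4 times in the Lamp1 window. The Gabarap window, set by its RefSeq start, lies almost wholly inside the GENCODE gene, which starts at chr11:69991143. Bases further upstream were not searched, so the 0 does not cover the sequence before that GENCODE start. Over the 27025 genes with a promoter, 8.09% had at least 1 match, and 7 of the 37 members did (18.9%), namely Atg3, Atg5, Atg7, Atg14, Lamp1, Vps16 and Vps33a. The Atg7 window, at chr6:114670846-114671145, lies inside the GENCODE gene, which starts at chr6:114643097, so its match is not at that start. The longer palindrome TCACGTGA, which contains CACGTG, occurred in 1.12% of genes and in 3 of the 37 members, Atg3, Vps16 and Vps33a. With G added before it and C after it, that palindrome occurred in 0.37% of genes. This form was found in 2 of the 37 members, Vps16 and Vps33a, and not in the Atg3 or Gabarap window. Such matches describe letters and are not shown to be bound. Tfeb itself had 18.2, 12.025, 11.9, 15.1 and 18.987 CPM in the 5 control libraries, 8.87 to 17.4 (median 13.7) CPM in the 7 day 7 libraries and 13.4, 10.8, 14.7 and 11.2 CPM in the 4 day 14 libraries, with overlapping groups (day 14 against control, log2 change -0.28 ± 0.21, adjusted p = 0.428).

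Cargo receptors were lower at day 14 in 4 of 4 log2 changes against control, and 0 were called. With library totals Nbr1 turned to 0.10, and the other 3 stayed negative. Tax1bp1, a receptor for ubiquitinated cargo and a brake on inflammatory signalling, had 366, 354, 380.0, 277 and 283 CPM in the 5 control libraries, 257 to 386 (median 294) CPM in the 7 day 7 libraries and 200.03, 247, 248 and 279 CPM in the 4 day 14 libraries. Day 14 libraries 1 to 3 lay below all control libraries, and day 14 library 4 fell between control libraries 4 and 5. The difference missed the threshold (log2 change -0.45 ± 0.13, adjusted p = 0.0696), and without control libraries 1 and 2 it was -0.37 ± 0.15 (adjusted p = 0.127). DESeq2 called Tax1bp1 lower, with an adjusted p of 0.0335. Sqstm1, which encodes p62, had 154, 119.7, 166, 107 and 117 CPM in the 5 control libraries, 100.5 to 148 (median 136) CPM in the 7 day 7 libraries and 119, 94.7, 94.6 and 93.5 CPM in the 4 day 14 libraries. Day 14 libraries 2 to 4 were below every control library, and library 1 lay within the control range (day 14 against control, log2 change -0.40 ± 0.15, adjusted p = 0.129; day 14 against day 7, log2 change -0.33 ± 0.14, adjusted p = 0.276). Nbr1, a p62 partner, averaged 126 ± 14.7 CPM at day 14 (SD, n = 4) and 151 ± 13.2 CPM at day 7 (n = 7), with an adjusted p of 0.187.

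Optn encodes optineurin, a receptor for mitochondria and bacteria, and had the lowest log2 change of the members at day 7. It had 36.8, 57.5, 9.21, 9.98 and 7.26 CPM in the 5 control libraries, 2.22 to 13.1 (median 3.07) CPM in the 7 day 7 libraries and 3.39, 15.5, 6.80 and 16.024 CPM in the 4 day 14 libraries. Day 7 libraries 1 to 5 were lower than every control library, day 7 libraries 6 and 7 overlapped them, and control libraries 1 and 2 stood far above the other 3. Against control the day 7 level did not pass the test (log2 change -2.25 ± 0.57, adjusted p = 0.0777), nor did the day 14 level (log2 change -1.21 ± 0.67, adjusted p = 0.283). Without control libraries 1 and 2 the values were -0.80 ± 0.51 (adjusted p = 0.520) at day 7 and 0.24 ± 0.58 (adjusted p = 0.785) at day 14, so the day 14 direction turns on those libraries. DESeq2 with all libraries called Optn lower at day 7 (log2 change -2.21, adjusted p = 0.0141). In the libraries high in Y-linked transcripts Optn had 8.23 and 13.1 CPM at day 7, against 36.8 and 57.5 CPM in controls. In those low in them it had 2.22 to 3.51 CPM at day 7 (n = 5), against 7.26, 9.21 and 9.98 CPM in controls (n = 3). Within those 11 libraries Optn fell at day 7 (log2 change -1.70 ± 0.35, adjusted p = 0.0291), where 0.537% of 18793 genes were called lower, and rose at day 14 against day 7 (log2 change 1.63 ± 0.36, adjusted p = 0.0150), where 1.59% were called higher and 1.37% lower. With the Y-linked sum as a covariate over all 16 libraries it fell at day 7 as well, with a log2 change of -1.77 ± 0.32 and an adjusted p of 0.00771. Marker sums in the 11 low libraries are given for controls, day 7 and day 14 in turn. Neutrophil markers summed to 18.04 to 47.3, 0.802 to 8.96 and 16.6 to 53.8 CPM. Erythroid markers summed to 32.0 to 91.3, 0.172 to 5.53 and 8.40 to 250 CPM. Both were lowest at day 7, as Optn was by its log2 changes. Markers of dividing cells summed to 263 to 445, 168 to 322 and 349 to 1117 CPM, with controls and day 7 overlapping. Macrophage and monocyte markers summed to 8.63 to 47.6, 17.9 to 26.8 and 26.7 to 33.7 CPM. The part of any of these in the Optn level was not tested.

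Wipi1, Lamp1 and Lamp2 shared with Optn and Gabarapl1 their highest control values in libraries 1 and 2. Wipi1, a phosphoinositide reader, had 8.35, 18.8, 1.91, 1.05 and 1.33 CPM in the 5 control libraries, 0.466 to 2.54 (median 1.10) CPM in the 7 day 7 libraries and 1.73, 2.31, 2.86 and 6.23 CPM in the 4 day 14 libraries. Its day 7 log2 change was -2.12 ± 0.65 (adjusted p = 0.0847) with all controls and 0.0051 ± 0.57 without control libraries 1 and 2. Its day 14 log2 change was 1.19 ± 0.65 (adjusted p = 0.230) without those libraries, against -0.94 with all controls. DESeq2, and edgeR's test without control library 5, called Wipi1 lower at day 7, as given above. Lamp1, a glycoprotein of the lysosomal membrane, had 118, 129.6, 85.5, 86.3 and 82.0 CPM in the 5 control libraries, 62.8 to 75.6 (median 69.1) CPM in the 7 day 7 libraries and 67.4, 76.3, 64.3 and 97.96 CPM in the 4 day 14 libraries. Every day 7 library was below every control library, which held for 0.982% of all genes, and the difference missed the threshold (log2 change -0.55 ± 0.13, adjusted p = 0.0709). Without control libraries 1 and 2 it was -0.30 ± 0.12 (adjusted p = 0.331). With the Y-linked covariate Lamp1 fell, with a log2 change of -0.46 ± 0.10 and an adjusted p of 0.0278. DESeq2 called it lower too (-0.53, adjusted p = 0.00359). So did edgeR's test with the stricter filter (-0.52, adjusted p = 0.0490) and without control library 5 (-0.61, adjusted p = 0.0244). Lamp2, the related glycoprotein needed for fusion and chaperone-mediated autophagy, had 83.3, 101, 45.5, 47.7 and 39.1 CPM in the 5 control libraries, 33.8 to 44.5 (median 36.4) CPM in the 7 day 7 libraries and 37.3, 62.5, 58.4 and 105 CPM in the 4 day 14 libraries. Day 7 libraries were uniformly low, control libraries 1 and 2 and day 14 library 4 were high, and the groups overlapped (day 7 against control, log2 change -0.74 ± 0.23, adjusted p = 0.0883; day 14 against day 7, log2 change 0.80 ± 0.25, adjusted p = 0.121). DESeq2 called Lamp2 lower at day 7 against control (log2 change -0.71, adjusted p = 0.0223). Without control libraries 1 and 2 its edgeR log2 change against control was -0.22 ± 0.20 at day 7 (adjusted p = 0.657). In that fit it was 0.58 ± 0.22 at day 14 (adjusted p = 0.114). Against day 7, the day 14 level of Lamp2 was called higher by DESeq2 (log2 change 0.82, adjusted p = 0.0168), in the fit of the compared groups alone (0.80, adjusted p = 0.0278) and with the Y-linked covariate (0.74, adjusted p = 0.0228), and without day 14 library 4 the log2 change was 0.48 (adjusted p = 0.599). The 3 libraries where these genes were highest are those with the highest sums of neutrophil markers, 785, 2156 and 1554 CPM, and they are also high in Y-linked transcripts. Markers of macrophages and monocytes were highest there too, with 98.6 CPM in day 14 library 4 and 224 and 598 CPM in control libraries 1 and 2, against 47.6 CPM or less in the other 13. The part of any of these in the levels was not tested.

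**Figure D3:**
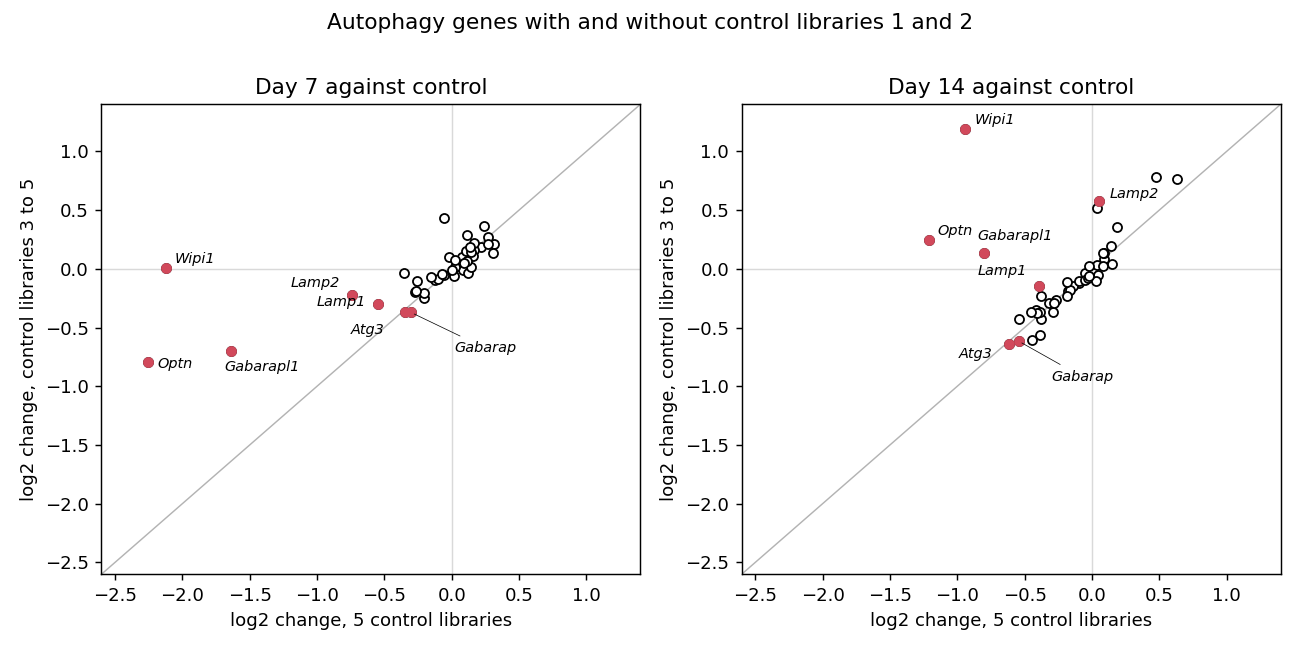
log2 changes of the 45 genes at day 7 (left) and day 14 (right) against control, from all 5 control libraries (horizontal axis) and from control libraries 3 to 5 (vertical axis). On the diagonal both are equal. Optn, Wipi1, Gabarapl1, Lamp1 and Lamp2 lie above it, Wipi1 farthest, and Atg3 and Gabarap lie on or near it.

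**Figure D4:**
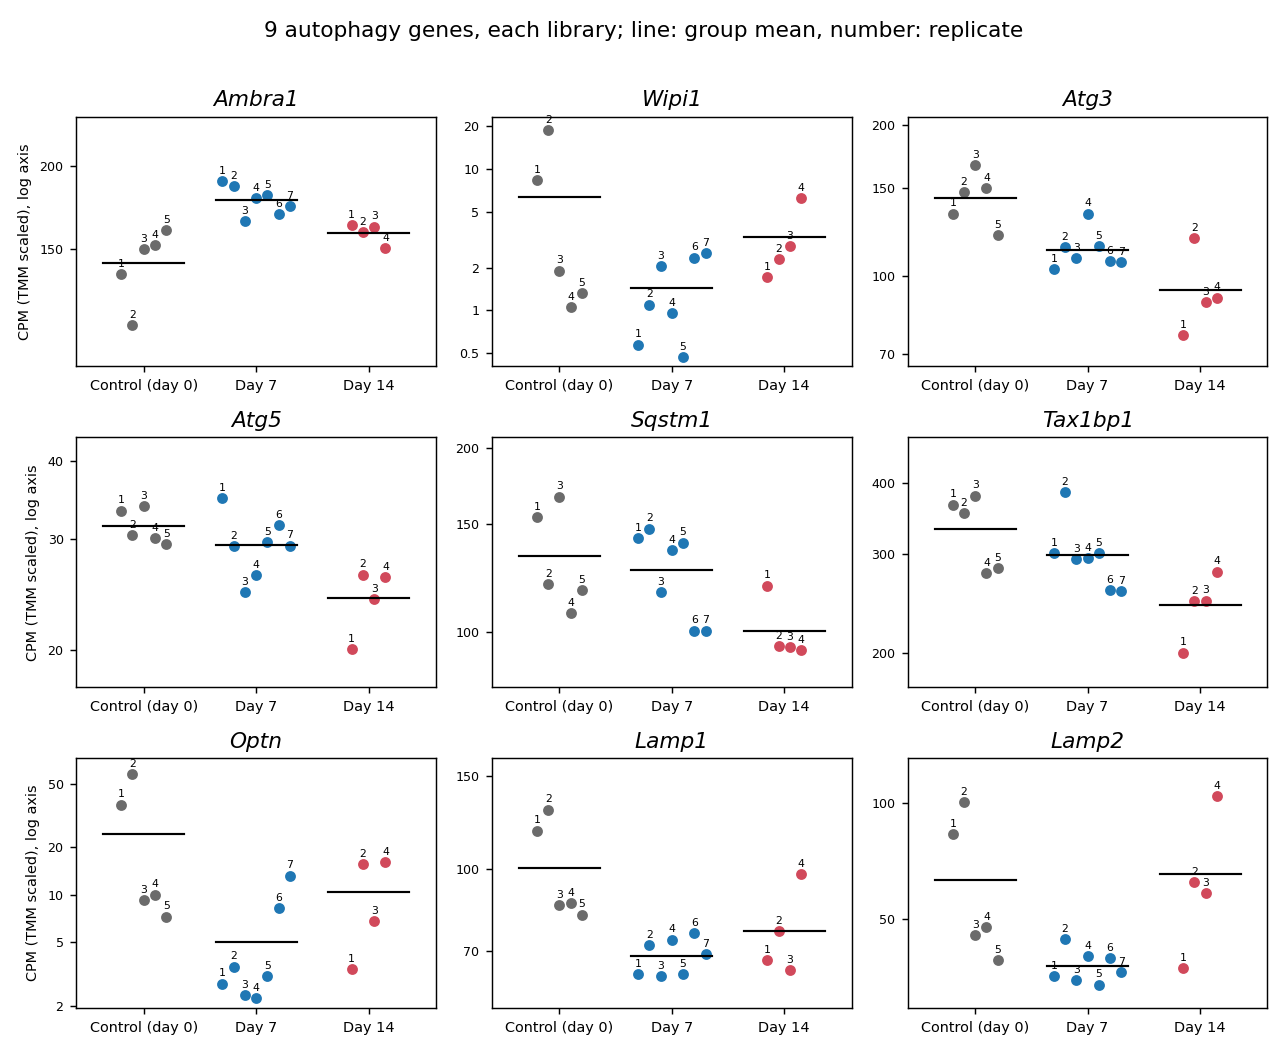
CPM (scaled, log axis, each panel with its own range) of 9 autophagy genes in each library, with control, day 7 and day 14 from left to right. Lines are group means and digits replicate numbers. Day 14 points lie below all control points for Atg3 and Atg5, day 7 points lie above all control points for Ambra1, and control libraries 1 and 2 stand above the other controls for Wipi1, Optn, Lamp1 and Lamp2.

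The HOPS genes, whose products tether autophagosomes and endosomes to lysosomes, were not called in any comparison. Their log2 changes lay between 0.025 and 0.27 at day 7 against control, all 6 positive, and between -0.019 and 0.14 at day 14 against control, where Vps18 and Vps41 were below 0 with the first scaling and above it with RLE scaling or library totals. Vps39, whose yeast counterpart binds a Rab GTPase, had 67.7, 66.1, 62.3, 77.6 and 82.5 CPM in the 5 control libraries, 75.5 to 96.2 (median 89.0) CPM in the 7 day 7 libraries and 77.9, 75.0, 78.6 and 70.9 CPM in the 4 day 14 libraries. The day 7 and control ranges overlapped and the difference missed the threshold (log2 change 0.27 ± 0.09, adjusted p = 0.10006), while DESeq2 called Vps39 higher at day 7 (adjusted p = 0.0404). Vps33a, the SNARE-binding subunit, had 48.9, 50.6, 40.4, 42.9 and 52.7 CPM in the 5 control libraries, 46.4 to 55.3 (median 51.7) CPM in the 7 day 7 libraries and 56.2, 56.4, 44.9 and 50.1 CPM in the 4 day 14 libraries, with overlap throughout (day 14 against control, log2 change 0.14 ± 0.10, adjusted p = 0.42168). Vps11, Vps16, Vps18 and Vps41 make up the rest of the complex, and their log2 changes lay between -0.11 and 0.17 over the 3 comparisons.

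A pattern within groups ran through several members. Control library 3 was the highest control for 16 of the 45 genes (35.6%), among them Ulk1, Atg2a, Map1lc3a, Map1lc3b, Sqstm1 and Tax1bp1, where 19.4% of the 8440 genes averaging 10 CPM or more were highest there. Without it the members' median log2 change at day 14 against control was -0.031 in place of -0.17. The median of other genes in that fit was not set beside it, so the move is not shown to be particular to the members. Day 7 library 3, which had the fewest gene reads of the 16, was the lowest day 7 library for 19 of 45 members. That is near the 35.8% of the 8440 genes that were lowest there, so it is not particular to the members. Day 14 library 1, with the largest share of reads outside gene models (69.8%), was the highest day 14 library for 17 of 45 members (37.8%), where 14.9% of the 8440 genes were highest there, and the lowest for 12 members, where 50.1% of those genes were lowest.

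Genes of the pathway outside the rule were described from 7 lists. Of 48 lysosomal hydrolase and membrane genes, 4 fell and 0 rose at day 14 against control (median log2 change -0.19), where 1.33% of all genes rose and 1.8% fell and the more abundant genes had a median of -0.15. They were Ctss, a cysteine protease, Npc2, which exports cholesterol, Lipa, the acid lipase, and Lgmn, an asparagine-specific protease. Ctss averaged 115 ± 26.032 CPM at day 14 (SD, n = 4) and 182 ± 20.8 CPM in controls (n = 5), with log2 change -0.67 ± 0.14, adjusted p = 0.0194. Npc2 averaged 183 ± 36.8 CPM at day 14 and 269 ± 20.7 CPM in controls (log2 change -0.55 ± 0.12, adjusted p = 0.0273). Every day 14 library was below every control library for Ctss, and for Npc2 day 14 library 2 overlapped control library 2. Several marker lists of other cells had negative medians at day 14 against control as well: the macrophage and monocyte markers had a median log2 change of -1.13, with 7 of 8 below 0 and 0 called, the B cell markers one of -1.12, with 7 of 8 below 0 and 1 called lower, and of the 8 neutrophil markers 3 were called lower. The 6 CD4 T cell markers had a median of -0.26, with 6 below 0 and 0 called. The part of these cells in the lysosomal levels was not tested. Of 17 tested subunits of the lysosomal proton pump, 2 fell and 0 rose, with a median of -0.43: Atp6v1d (log2 change -0.66 ± 0.14, adjusted p = 0.0221) and Atp6v1e1 (log2 change -0.51 ± 0.12, adjusted p = 0.0328). Of 18 further selective receptors 2 fell, the mitophagy receptors Bnip3l (log2 change -0.70 ± 0.13, adjusted p = 0.0114) and Fundc1 (log2 change -0.82 ± 0.22, adjusted p = 0.0475), and 0 rose. Bnip3l averaged 87.9 ± 11.7 CPM at day 14 and 143 ± 22.8 CPM in controls, and its groups did not overlap.

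In the control of autophagy by mTORC1 and AMPK, 2 of 36 genes fell at day 14 against control and 0 rose, where 1.33% of all genes rose and 1.8% fell. They were Sesn1, a stress-induced inhibitor of mTORC1 (log2 change -0.55 ± 0.13, adjusted p = 0.0298), and Lamtor2, part of its lysosomal anchor (log2 change -0.74 ± 0.18, adjusted p = 0.0387). Of 24 fusion genes outside the rule, Rab33b, a Rab GTPase that binds ATG16L1, fell (log2 change -0.61 ± 0.14, adjusted p = 0.0273) and 0 rose. Of 18 further membrane, initiation and inhibitor genes, Bcl2, whose product binds Beclin 1 and blocks apoptosis, rose to 554 ± 158 CPM at day 14 (n = 4), against 342 ± 79.3 CPM in controls (n = 5; log2 change 0.70 ± 0.19, adjusted p = 0.049981), and 0 fell. Among 17 transcription factors of autophagy and lysosome genes 0 were called at day 14 against control. Against day 7, Foxo1, a factor of naive T cells and of autophagy genes, fell (log2 change -0.74 ± 0.16, adjusted p = 0.0330), as did Rab33b and Sesn1, and Bcl2 rose. In that comparison 0.412% of all genes rose and 0.553% fell. At day 7 against control 0 genes of these 7 lists were called, where 0.0109% of all genes rose and 0% fell. These calls varied with the processing: at day 14 against control, Bnip3l was called in 17 of 21 alternatives, Ctss in 16, Atp6v1d in 13, Npc2 and Rab33b in 12, Lipa in 11, Lamtor2 in 10, Sesn1 in 9, Atp6v1e1 in 8, Lgmn and Bcl2 in 7 and Fundc1 in 5, each with its direction unchanged. Against day 7, Rab33b was called in 18 of 22 alternatives, Foxo1 in 13, Bcl2 in 10 and Sesn1 in 9.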

How the data were processed

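RNA of splenic CD4 T cells was sequenced from 100 ng of total RNA with a NuGEN mouse kit, per the labels' protocols. The authors deposited 1 table of raw read counts per gene for the 16 libraries, with 5 lines of reads assigned to no gene, which were left out of library sizes and tests. Reads outside gene models took 47.1 to 69.8% of a library and reads not uniquely aligned 6.67 to 10.1%. Per the submitters' processing notes, bcl2fastq 2.20.0.422, cutadapt 1.8.1 and HTSeq 0.6.1 were used with the mm10 build; the aligner, annotation and strand setting are not given in the sources used here. Groups came from the labels. Counts were filtered with filterByExpr and tested with edgeR 4.0.16 (glmQLFit and glmQLFTest, TMM, 1 fit over 3 groups) in R 4.3.3, with Benjamini-Hochberg adjustment over 18430 genes. The pipeline was tested on simulated data. DESeq2 1.42.0, limma-voom (limma 3.58.1), RLE scaling, library totals, no filter and a stricter filter (5 CPM in 4 libraries), only the compared groups, a replicate block, covariates for Y-linked transcripts and for reads outside gene models, leaving out control libraries 1 and 2 or each library in turn, and, chosen after seeing the data, only libraries low in Y-linked transcripts were the alternatives. The members and lists were chosen with earlier results of these data known. Values are given for called members, the 5 highest and 5 lowest log2 changes per comparison among members of at least 10 CPM, and a panel of 1 or more genes per role; of other lists, called genes. Atg9b, Atg14, Map1lc3a, Nbr1, Uvrag, Wipi1, Wipi2 and the genes named only in ranges were chosen after their values were seen.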

Additional observations from a re-analysis of the deposited data

Results flagged for a closer look

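Of 69 groups of 4 to 7 libraries, for 23 genes, 5 had 1 library far from the rest, and chance gives about 1 in 20 groups. Atg3 stood at 133 CPM in day 7 library 4, with the next at 115 CPM. Becn1 was at 82.9 CPM in day 7 library 3, with the next at 102 CPM. Pik3c3 and Tax1bp1 were both highest in day 7 library 2, at 74.03 and 386 CPM, with the next libraries at 64.9 and 301 CPM. Sqstm1 was at 119 CPM in day 14 library 1, with the next at 94.7 CPM.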

How the results depend on the processing

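For the 34 member results with an unadjusted p below 0.05, 760 values were recomputed under alternatives: 709 kept their direction and side of the threshold, 21 lost a call, 29 gained one and 1 reversed: Wipi1 at day 7 against control, 0.0051 without both control libraries 1 and 2. Among the other member results, 3 changed sign from an absolute log2 change of 0.5 or more, all at day 14 against control: without those libraries Optn was 0.24, Gabarapl1 0.14 and Wipi1 1.19, against -1.21, -0.80 and -0.94, and Wipi1 was also positive without control library 2 (0.048), with the Y-linked covariate (0.075) and in the libraries low in Y-linked transcripts (0.64). The sign changed in at least 1 alternative for 22 members at day 14 against control, those 3 included, 15 at day 7 against control and 18 at day 14 against day 7. Optn was called higher at day 14 against day 7 in 2 alternatives. At day 14 against control, 2 members were called higher with library totals alone (Ambra1 and Atg2b) and 0 otherwise. The 2 lower calls became 1 with RLE scaling, library totals, no filter or the stricter filter, and 0 in the fit of the compared groups alone, with the replicate block, and with the covariate for reads outside gene models. Leaving out 1 library gave 0 to 3. The labels do not say whether same-numbered libraries share more than a number. Of 4 or 5 such pairs per comparison, 1 deviated together with a correlation over 0.1 (range -0.343 to 0.295). Whether they share a batch was not tested. At day 7 against control, higher calls were 2 with DESeq2 and 0 to 2 with 1 library left out. Lower calls were 1 with the stricter filter (Lamp1), 6 with DESeq2, 3 with the covariate for Y-linked transcripts, 1 in the libraries low in them and 0 to 6 with 1 library left out. Over all genes, DESeq2 called 499 of 18430 higher and 1104 lower. Genes called lower were 76 of 10136 with the stricter filter, 246 of 18430 with that covariate and 101 of 18793 in the low libraries. At day 14 against day 7, higher calls were 1 with DESeq2, 1 in the compared groups alone, 2 with the Y-linked covariate and 1 in the low libraries. Lower calls there were 1 with DESeq2 and 1 with that covariate. Over all genes, DESeq2 called 349 of 18430 higher and 358 lower, and the Y-linked covariate 526 of 18430 higher and 446 lower. Genes called higher were 316 of 17014 in the compared groups alone and 298 of 18793 in the low libraries. The members' median log2 change at day 14 against control was 0.036 with library totals, -0.054 with the stricter filter and -0.19 to -0.031 with 1 library left out. At day 7 against control it was 0.018 to 0.12 with 1 left out, and at day 14 against day 7 it was 0.028 with library totals. The cause of these moves was not tested. Of all genes, the day 7 calls against control were 2 higher and 0 lower with all libraries, and 429 and 1026 without control library 5. The day 14 calls against control were 246 higher and 331 lower with TMM, 699 and 100 with library totals, 289 and 250 with RLE, 852 and 699 with DESeq2, 538 and 465 with limma-voom, and 25 and 21 with the replicate block. Day 14 libraries held 14731908 to 17067236 gene reads, fewer than every control library.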
